A study of Mus musculus with 18 samples.

Results

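The genes described here are 9 that build, load and display major histocompatibility complex (MHC) class I molecules: B2m, H2-K1, H2-D1, Tap1, Tap2, Tapbp, Psmb8, Psmb9 and Nlrc5. They were chosen by symbol, and all 9 were present among the 21638 genes of the deposited count table and passed the filter on low counts that left 17094 genes for testing. RNA came from endothelial cells of the mouse cortex, sorted for CD31 and against the platelet marker CD41 and the leukocyte marker CD45, at day 7 after occlusion of the middle cerebral artery (MCAO, a surgical model of ischaemic stroke) or after sham surgery. The 18 libraries formed 6 groups of 3: sham ipsilateral, sham contralateral, MCAO ipsilateral and MCAO contralateral, all labelled WT, and MCAO ipsilateral libraries labelled Hdac2 ECKO and Ezh2 ECKO. ECKO stands for endothelial deletion: Cdh5CreERT2, a Cre recombinase under the endothelial Cdh5 promoter that tamoxifen switches on, acted on floxed alleles of Hdac2 or of Ezh2. Every group carried the label of tamoxifen at 75 mg per kg, the WT groups included. Strain, age, batch and whether equally numbered ipsilateral and contralateral libraries came from the same mouse are not given in the sources used here.

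Class I molecules show peptides from inside the cell to CD8 T cells. The proteasome cuts proteins into peptides, the Tap1-Tap2 transporter carries them into the endoplasmic reticulum, Tapbp (tapasin) bridges the transporter to empty heavy chains, and a heavy chain such as H2-K1 or H2-D1 leaves for the cell surface once it holds both a peptide and the light chain beta-2 microglobulin, encoded by B2m. Interferons raise the whole set in many cell types, in part by exchanging catalytic proteasome subunits for Psmb8, Psmb9 and Psmb10 and in part through Nlrc5, which joins a complex of RFX, CREB-family and NF-Y proteins on class I promoters. Brain endothelial cells are the first cells that circulating T cells meet at the blood-brain barrier.

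Of the 9 genes, 7 lay within chr17:33915899-35267499, the mouse MHC region, on build GRCm38. B2m was at chr2:122147686-122153083 (plus strand) and Nlrc5 on chromosome 8. Psmb9 (chr17:34181987-34187764, minus strand) and Tap1 (chr17:34187553-34197225, plus strand) overlapped head to head. Promoter sequence from RefSeq, on GRCm38.p6, was matched for 7 of the 9 by symbol, as 8 windows of 300 bases. The 150 bases before the start are shown for the genes whose levels moved most closely together, the 3 chains and the pair Psmb8 and Psmb9. Capitals mark matches, on either strand, to 4 short patterns: TTTC, any 2 bases and TTTC again, the core of the interferon-stimulated response element; TTCNNNGAA, the core of the gamma-activated site; TGACGC, a core of sites for CREB-family proteins; and CCAAT, the core bound by NF-Y.
B2m, chr2:122147537-122147686, plus strand: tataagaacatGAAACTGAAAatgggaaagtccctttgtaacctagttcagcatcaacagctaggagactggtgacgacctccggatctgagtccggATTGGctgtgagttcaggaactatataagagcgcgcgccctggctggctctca
H2-K1, chr17:34000334-34000483, minus strand: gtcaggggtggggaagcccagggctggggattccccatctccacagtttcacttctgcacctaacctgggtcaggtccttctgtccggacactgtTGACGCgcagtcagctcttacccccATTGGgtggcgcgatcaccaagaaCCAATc
H2-D1, chr17:35262944-35263093, plus strand: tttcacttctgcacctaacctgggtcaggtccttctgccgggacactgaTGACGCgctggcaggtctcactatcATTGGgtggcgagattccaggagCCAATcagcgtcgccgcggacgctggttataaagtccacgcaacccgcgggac
Psmb8, chr17:34198045-34198194, plus strand: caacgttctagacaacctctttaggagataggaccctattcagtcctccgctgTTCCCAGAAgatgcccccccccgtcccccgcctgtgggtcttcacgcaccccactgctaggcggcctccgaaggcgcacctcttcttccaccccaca
Psmb9, chr17:34187331-34187480, minus strand: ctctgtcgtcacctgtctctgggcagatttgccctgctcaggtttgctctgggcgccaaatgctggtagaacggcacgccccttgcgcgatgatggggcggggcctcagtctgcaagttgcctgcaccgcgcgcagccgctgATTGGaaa
H2-K1 and H2-D1 shared a run of 37 identical bases, and both stretches shown held the same order of matches: TGACGC first, the NF-Y core on the opposite strand next and the same core on the strand of the gene last. H2-K1 had another window, with a different start, that is not shown. In that window the last of these matches lay past the start, outside the 150 bases before it. The NF-Y core reads ATTGG on the opposite strand. The B2m stretch held ATTGG and, on the minus strand, a match to the response element core. The Psmb8 stretch held a match to TTCNNNGAA, and the Psmb9 stretch held ATTGG. Among all 32851 promoter windows, 3.44% held the response element core, 8.30% TTCNNNGAA, 7.40% TGACGC and 37.4% CCAAT. A match is a description of the letters and not a measured binding site. The patterns are strict, so a stretch without a match may still hold a variant of a site.

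Total counts ran from 25791401 to 57576255 per library. In the libraries labelled Hdac2 ECKO, Hdac2 itself was at 57.6 to 87.9 CPM (counts scaled to 1e+06 per library, after TMM scaling of the totals) against 68.2 to 96.1 CPM in MCAO ipsilateral. In those labelled Ezh2 ECKO, Ezh2 was at 8.41 to 19.7 CPM against 4.45 to 7.85 CPM. For Hdac2 the means were 76.8 and 82.9 CPM with ranges that overlapped (log2 fold change −0.11 ± 0.32, adjusted p = 0.93), and Ezh2 was higher with separate ranges. Whole-gene counts include exons outside a floxed part, so they do not settle the deletion, and these groups are called by their labels. Endothelial markers were present: 10 of 10 were above 0 in every library, and Pecam1, which encodes CD31, was at 198 to 453 CPM. Ptprc, which encodes CD45, was between 0.13 and 6.57 CPM. MCAO contralateral replicate 1 and Ezh2 ECKO replicate 2 stood apart from the rest, with median correlations to the other libraries of 0.868 and 0.888 where the others had 0.921 to 0.967. In these 2 libraries olfactory and vomeronasal receptor genes, used as a measure of diffuse background, summed to 1889 and 2083 CPM, against 152 to 716 CPM in the other 16. Unlike the other CPM values, this receptor background was scaled to the raw totals, without TMM factors, here and below.

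B2m was by far the most abundant of the 9. On a scale that corrects for gene length (RPKM, CPM per kilobase of gene model), its mean level over the 18 libraries was 11966, against 179 for H2-D1, 163 for H2-K1, 45.9 for Psmb8, 23.5 for Psmb9, 20.9 for Tapbp, 3.70 for Tap2, 2.73 for Tap1 and 1.22 for Nlrc5. The transporter and the transactivator thus stood at the low end of the pathway and the displayed chains at the high end. For 8 of the 9 genes the MCAO ipsilateral group had the highest mean level of the 6 groups; Nlrc5 was the exception. In no gene did groups next to each other in the order of means have separate ranges, so the order itself was not resolved by 3 libraries a group.

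**Figure D1:**
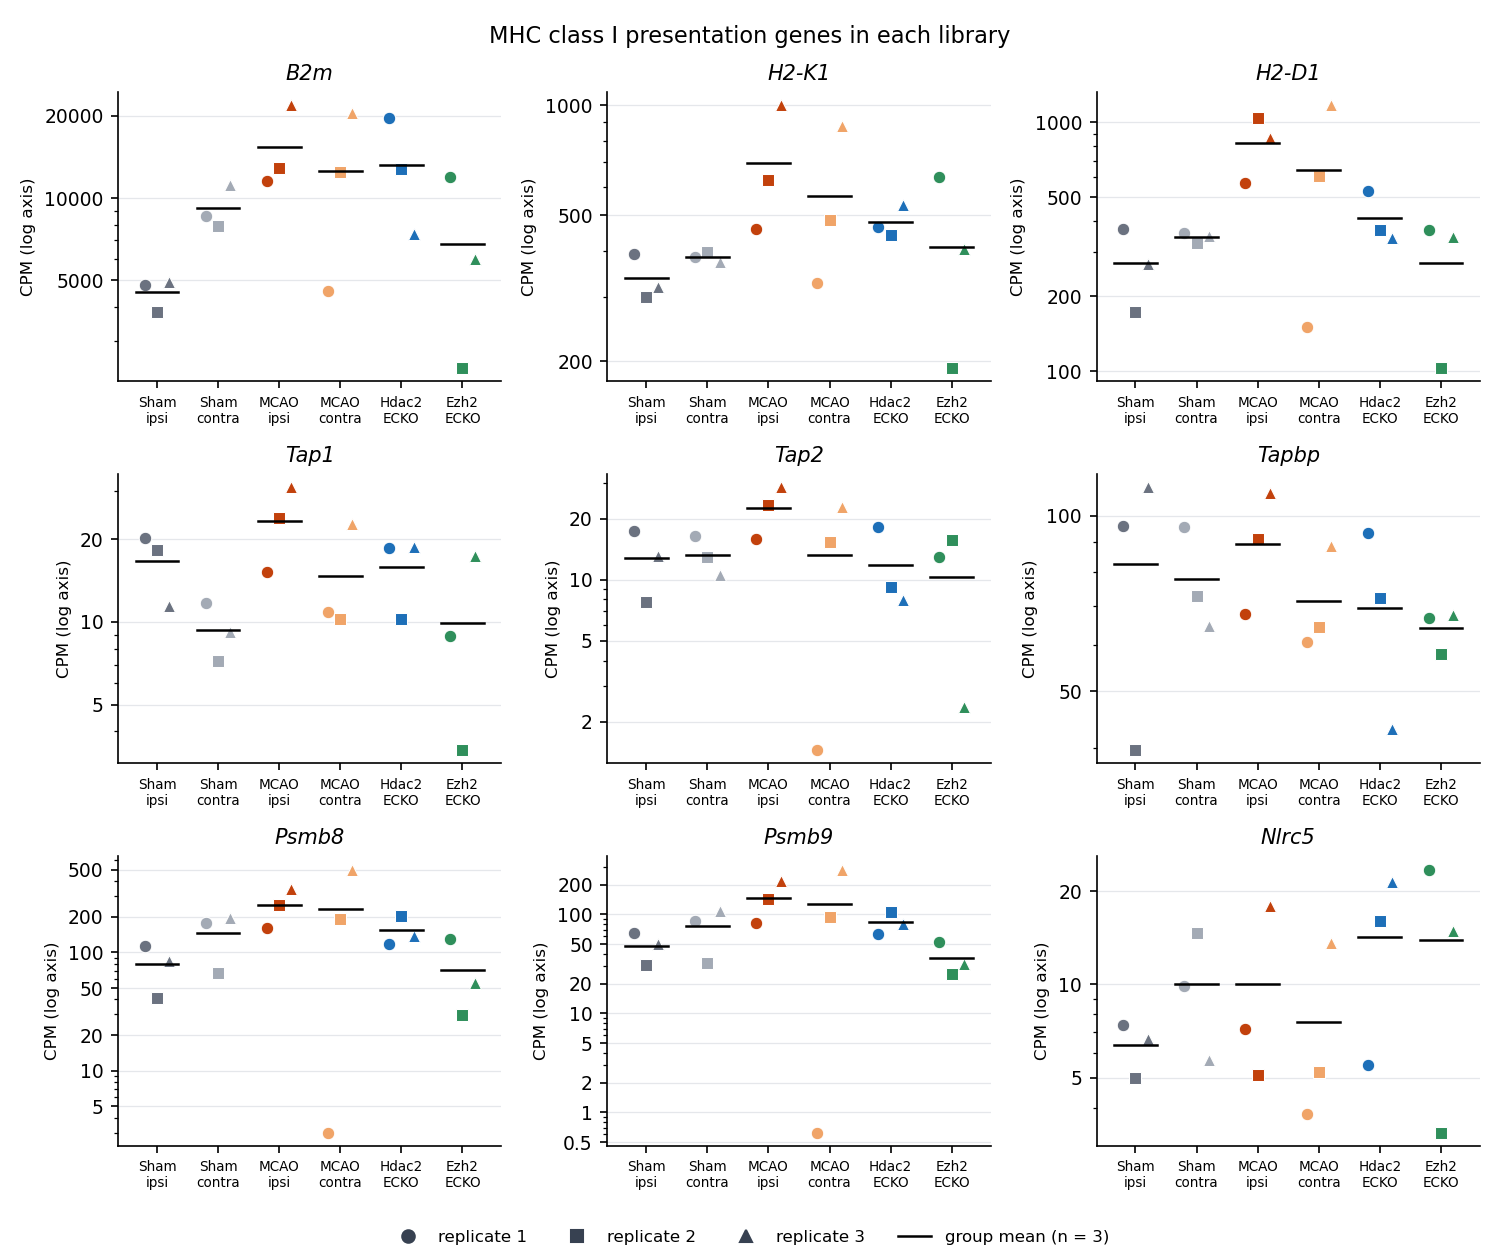
Levels of the 9 genes in CPM (vertical log axes, which differ between panels) in each of 18 libraries, grouped along the horizontal axis; symbols give the replicate number and black bars the group mean (n = 3). MCAO ipsilateral replicate 3 and MCAO contralateral replicate 3 hold the highest value for 7 of the 9 genes, and Psmb8 and Psmb9 drop to 3.01 and 0.628 CPM in MCAO contralateral replicate 1.

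The light chain differed between groups as follows. B2m stood at 4809, 3836 and 4925 CPM in sham ipsilateral libraries and at 8594, 7931 and 11162 CPM in sham contralateral. It stood at 11504, 12932 and 21886 CPM in MCAO ipsilateral and at 4588, 12445 and 20569 CPM in MCAO contralateral. Every MCAO ipsilateral library exceeded every sham library of either side, whereas the MCAO contralateral group overlapped both sham groups. Libraries labelled Hdac2 ECKO gave 19562, 12764 and 7375 CPM, and those labelled Ezh2 ECKO gave 11965, 2386 and 5997 CPM. The Hdac2 ECKO values all lay above sham ipsilateral, and the Ezh2 ECKO values lay on both sides of it.

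The heavy chains H2-K1 and H2-D1, which carry the peptide, had smaller ranges for their level than B2m over both sham sides together. Within sham contralateral the SD was 3.36% of the mean for H2-K1, 4.98% for H2-D1 and 18.5% for B2m. Within sham ipsilateral it was 14.6%, 36.7% and 13.2% in the same order. H2-K1 was at 392, 299 and 319 CPM in sham ipsilateral and 384, 398 and 373 CPM in sham contralateral, then 460, 625 and 1001 CPM in MCAO ipsilateral and 328, 486 and 881 CPM in MCAO contralateral. Its MCAO ipsilateral values were all above both sham groups, while the contralateral ones overlapped them. Hdac2 ECKO libraries gave 464, 444 and 533 CPM and Ezh2 ECKO libraries 637, 191 and 404 CPM, so the latter group covered more than the sham range. H2-D1 was at 373, 173 and 271 CPM in sham ipsilateral, 360, 326 and 349 CPM in sham contralateral, 569, 1036 and 865 CPM in MCAO ipsilateral and 150, 609 and 1171 CPM in MCAO contralateral. It was at 528, 368 and 342 CPM in Hdac2 ECKO and 368, 103 and 346 CPM in Ezh2 ECKO. All 6 ECKO values were below the lowest MCAO ipsilateral value of H2-D1. Per kilobase, H2-D1 was 1.43 ± 0.45 times H2-K1 in MCAO ipsilateral and 0.90 ± 0.22 times in sham ipsilateral (SD, n = 3 each), with ranges that overlapped. B2m was 20.1 to 62.7 times the sum of both heavy chains per kilobase, depending on the library. Sequence is shared within this family: 3.10% of 75-base stretches of H2-K1 transcripts and 5.40% of those of H2-D1 also occurred in another gene, against none for B2m.

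Peptide transport and loading genes varied without a clear order of groups. Tap1 was at 20.1, 18.3 and 11.5 CPM in sham ipsilateral, 11.7, 7.2 and 9.17 CPM in sham contralateral, 15.2, 23.9 and 30.9 CPM in MCAO ipsilateral and 10.9, 10.3 and 22.8 CPM in MCAO contralateral. Its ECKO values were 18.6, 10.2 and 18.7 CPM (Hdac2) and 8.9, 3.41 and 17.4 CPM (Ezh2). The MCAO ipsilateral range overlapped that of sham ipsilateral but lay above that of sham contralateral. Tap2, the partner subunit, was at 17.4, 7.75 and 13.2 CPM in sham ipsilateral, 16.4, 12.9 and 10.6 CPM in sham contralateral, 15.9, 23.3 and 28.6 CPM in MCAO ipsilateral and 1.44, 15.3 and 22.9 CPM in MCAO contralateral. It was at 18.2, 9.27 and 7.94 CPM in Hdac2 ECKO and 12.9, 15.7 and 2.35 CPM in Ezh2 ECKO. The 2 lowest Tap2 values rested on 46 counts (MCAO contralateral replicate 1) and 84 counts (Ezh2 ECKO replicate 3), and in both libraries Tap1 did not drop with it: Tap1 was there 5.19 and 5.11 times Tap2 per kilobase, against 0.15 to 1.63 times in the other 16. Tapbp had the narrowest spread of the 9 genes, a 2.83-fold range over all libraries from 39.6 to 112 CPM. Both extremes of Tapbp were sham ipsilateral libraries, and its Ezh2 ECKO values of 66.7, 57.8 and 67.6 CPM lay just below the MCAO ipsilateral values of 67.8, 91.3 and 109 CPM.

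The immunoproteasome subunits Psmb8 and Psmb9, proteases that take the place of Psmb5 and Psmb6, had the widest ranges. Psmb8 was at 113, 40.9 and 84.2 CPM in sham ipsilateral, 177, 67.3 and 196 CPM in sham contralateral, 160, 251 and 340 CPM in MCAO ipsilateral and 3.01, 190 and 500 CPM in MCAO contralateral. It was at 118, 202 and 139 CPM in Hdac2 ECKO and 129, 29.3 and 55.6 CPM in Ezh2 ECKO. Psmb9 followed it from library to library: 64.9, 30.6 and 49.8 CPM in sham ipsilateral, 85.5, 32.6 and 109 CPM in sham contralateral, 81.5, 143 and 215 CPM in MCAO ipsilateral and 0.628, 94.3 and 284 CPM in MCAO contralateral. In Hdac2 ECKO it was at 62.9, 106 and 80.5 CPM and in Ezh2 ECKO at 52.1, 25.0 and 31.5 CPM. MCAO contralateral therefore held both the highest and the lowest library of the series for each of these 2 genes, and the lowest values came from 96 and 20 counts. For both genes the MCAO ipsilateral values were all above sham ipsilateral and all above Ezh2 ECKO.

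Set against the constitutive subunit it replaces, Psmb8 was 0.227 ± 0.035 times Psmb5 per kilobase in sham ipsilateral, 0.249 ± 0.019 times in sham contralateral and 0.431 ± 0.180 times in MCAO ipsilateral (SD, n = 3 each). All MCAO ipsilateral ratios, 0.296, 0.361 and 0.635, exceeded all 6 sham ratios, the highest of which was 0.267. In Ezh2 ECKO the ratio was 0.400 ± 0.114 and overlapped MCAO ipsilateral, although the level of Psmb8 did not, since Psmb5 was also lower there (71.6, 17.2 and 54.8 CPM against 144, 184 and 142 CPM). Psmb9 over Psmb6 went from 0.153 ± 0.058 in MCAO ipsilateral to 0.059 ± 0.007 in Ezh2 ECKO with no overlap, and Psmb10 over Psmb7 from 1.78 ± 0.28 to 0.739 ± 0.080, also with no overlap. Psmb10 is the remaining inducible subunit and Psmb7 the one it replaces. Against sham ipsilateral, by contrast, MCAO ipsilateral overlapped in both of these ratios. Psmb9 over Psmb6 was 0.0560 to 0.0917 in sham ipsilateral and 0.0915 to 0.206 in MCAO ipsilateral. Psmb10 over Psmb7 was 0.961 to 1.93 and 1.47 to 2.00 in the same groups. These ratios are descriptions; with 3 libraries against 3, an exact permutation test cannot go below 0.1, and none was run.

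**Figure D2:**
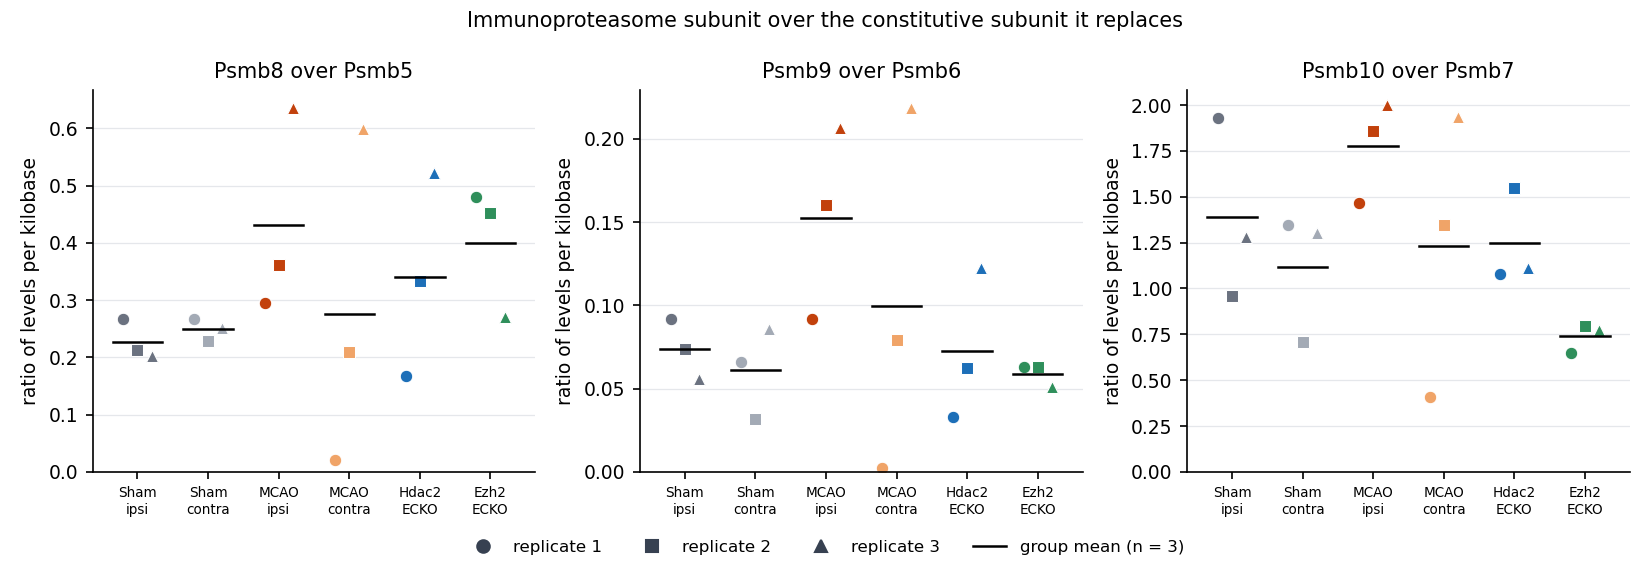
Ratio of an inducible proteasome subunit to the constitutive subunit it replaces, from levels per kilobase (linear axes from 0), in each library by group; symbols give the replicate number and black bars the mean of 3. Psmb8 over Psmb5 is at or above 0.296 in the 3 MCAO ipsilateral libraries and at or below 0.267 in the 6 sham libraries, and Psmb10 over Psmb7 is at or below 0.795 in Ezh2 ECKO.

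Nlrc5, the transactivator of class I genes, was the least abundant of the 9, with a mean of 10.4 CPM over the 18 libraries. It was at 7.38, 5.0 and 6.69 CPM in sham ipsilateral, 9.89, 14.6 and 5.69 CPM in sham contralateral, 7.16, 5.1 and 17.9 CPM in MCAO ipsilateral and 3.83, 5.23 and 13.6 CPM in MCAO contralateral. Hdac2 ECKO libraries gave 5.49, 16.0 and 21.3 CPM and Ezh2 ECKO libraries 23.5, 3.33 and 14.9 CPM. The lowest and the highest of the 18 values were both from Ezh2 ECKO, so that this group alone spanned the whole range of the gene.

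The first question the design poses is what the occlusion did on its own side. All 9 genes had higher fitted levels in MCAO ipsilateral than in sham ipsilateral, with a median log2 fold change of 1.05 where the median over all tested genes was −0.09 and 45.9% of genes were above 0. None of the 9 passed the test (edgeR's quasi-likelihood test, Benjamini-Hochberg adjusted p under 0.05), and neither did any other gene: 0 of 17094 genes, or 0%, were called, with 1210 at an unadjusted p under 0.05. DESeq2 called 69 genes and limma's voom with sample weights 1273, with no member and 3 members (B2m, H2-K1 and H2-D1) among them. The light chain and heavy chains came closest. B2m differed by 1.77 ± 0.53 (log2 fold change ± SE; adjusted p = 0.51), H2-D1 by 1.60 ± 0.53 (adjusted p = 0.56) and H2-K1 by 1.05 ± 0.40 (adjusted p = 0.63). Their unadjusted p-values were 0.0032, 0.0068 and 0.016, and 3 of 9 members were under 0.05 in this direction against 4.26% of all genes. Psmb8 differed by 1.65 ± 0.87 (adjusted p = 0.72) and Psmb9 by 1.60 ± 0.91 (adjusted p = 0.74). The loading genes were closer to 0, with Tap2 at 0.82 ± 0.73, Tap1 at 0.49 ± 0.56 and Tapbp at 0.12 ± 0.38, as was Nlrc5 at 0.66 ± 0.72 (adjusted p from 0.81 to 0.95). Separate ranges, all MCAO values above all sham values, were found for 5 of the 9 (B2m, H2-K1, H2-D1, Psmb8 and Psmb9) and for 13.3% of all genes. MCAO ipsilateral replicate 3 held the highest value of that group in 8 of the 9 genes; without it the signs of Tapbp (−0.01) and Nlrc5 (−0.02) turned and the members' median was 0.72. The receptor background moved with this comparison as well, at 285, 716 and 463 CPM in sham ipsilateral and 242, 154 and 296 CPM in MCAO ipsilateral. With its log as a covariate the members' median was 0.70, with B2m at 1.23, H2-D1 at 0.97, H2-K1 at 0.76, Psmb9 at 0.75, Psmb8 at 0.70, Nlrc5 at 0.42, Tap2 at 0.41, Tap1 at 0.28 and Tapbp at −0.027, and the smallest adjusted p was 0.48 (B2m).

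**Figure D3:**
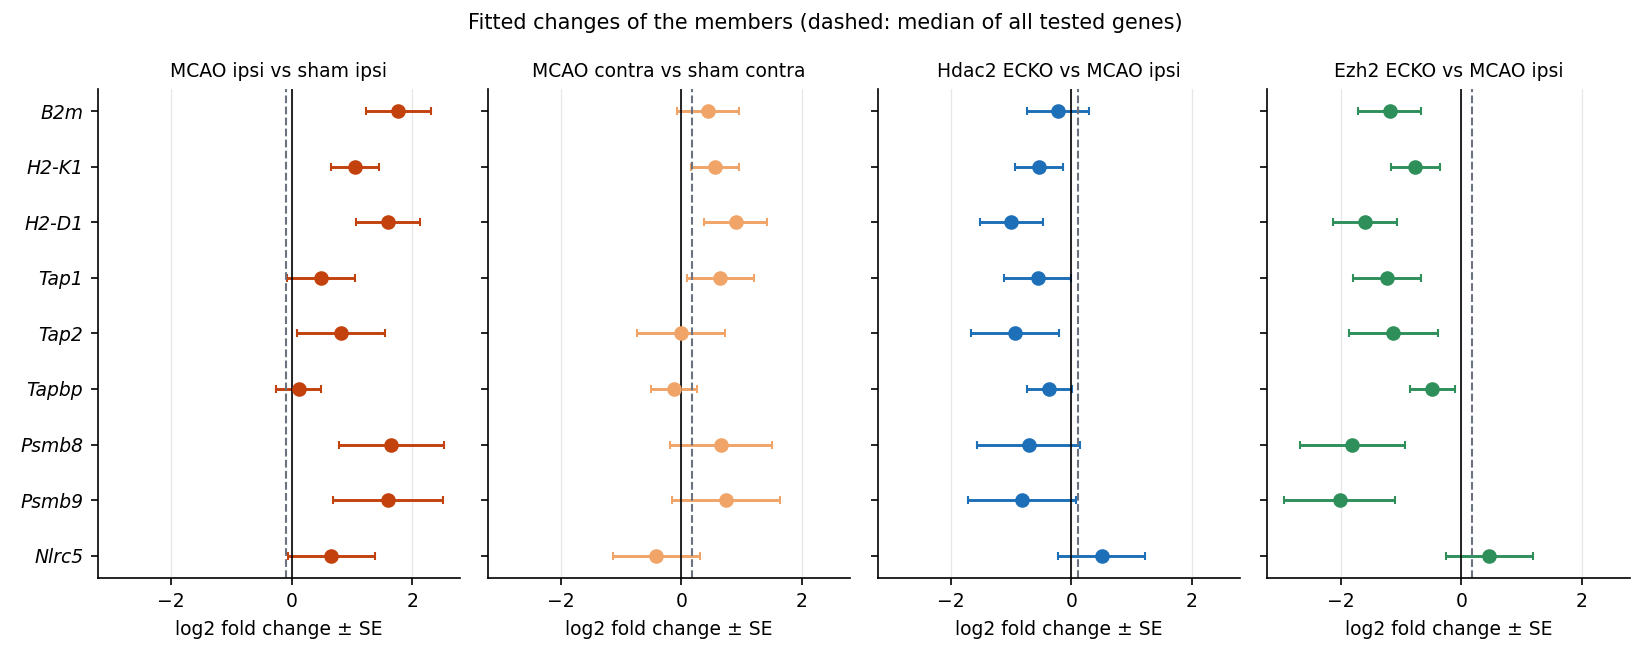
Fitted log2 fold change with its standard error (horizontal axis) for the 9 genes in 4 comparisons, 3 libraries against 3 in each; the solid line is 0 and the dashed line the median of all 17094 tested genes. All 9 points lie right of 0 in MCAO ipsilateral against sham ipsilateral, and 8 of 9 lie left of 0 in each ECKO comparison, with Nlrc5 as the exception in both.

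On the contralateral side the differences were smaller and mixed. Of the 9 genes, 6 had higher and 3 lower fitted levels in MCAO than in sham contralateral (59.3% of all genes were higher), the median log2 fold change was 0.55 against 0.17 for all genes, no member had separate ranges (9.65% of all genes had, in either direction) and the smallest adjusted p was 0.92. That no gene was called here (0% of those tested, with 754 at an unadjusted p under 0.05) holds for edgeR; DESeq2 called 26 genes and voom 7, no member among either. MCAO contralateral replicate 3 and replicate 1 pulled in opposite directions: without replicate 3 the members' median was −0.31 and without replicate 1 it was 0.85. Whether the side difference in MCAO exceeded that in sham was tested as an interaction. It was positive for 8 of the 9 genes and for 46.8% of all genes, with the smallest adjusted p at 0.94 and 0% of genes called (578 at an unadjusted p under 0.05; 6 called by DESeq2 and 1 by voom). Between the sides of sham animals, B2m alone among the 9 had separate ranges, lower on the ipsilateral side, where 6.98% of all genes were lower with separate ranges and 0% were called by edgeR (317 at an unadjusted p under 0.05; 6 by DESeq2, 1 by voom). Between the sides of MCAO animals the 9 differences were all positive (46.2% of all genes were), from 0.11 to 0.77 on the log2 scale, with 0% of genes called by edgeR (526 at an unadjusted p under 0.05), 6 by DESeq2 and none by voom.

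Over both sides, 6 MCAO libraries were set against 6 sham libraries, each counted as separate. The sides may come from the same mice, which is not given, so the 6 libraries may not be independent. H2-D1 differed by 1.25 ± 0.37 (adjusted p = 0.21), B2m by 1.11 ± 0.37 (adjusted p = 0.27) and H2-K1 by 0.80 ± 0.28 (adjusted p = 0.32). Psmb9 differed by 1.17 ± 0.64 (adjusted p = 0.62) and Psmb8 by 1.15 ± 0.61 (adjusted p = 0.60). Here 26 genes were called, 0.152% of those tested, and no member was among them. The members' median was 0.80 against 0.06 for all genes. This count depended on MCAO contralateral replicate 1: without it H2-D1 (adjusted p = 0.017) and Psmb9 (1.47, adjusted p = 0.036) were called. Without that library and Ezh2 ECKO replicate 2, the 2 of high background, 5 members were called: H2-D1 (1.47, adjusted p = 0.0047), B2m (1.29, 0.022), H2-K1 (0.92, 0.033), Psmb9 (1.45, 0.033) and Psmb8 (1.43, 0.034, all adjusted p-values). Leaving out MCAO replicate 3 of both sides instead brought the members' median to 0.30, with no member called.

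The same 3 MCAO ipsilateral libraries serve as reference for both deletions and as the stroke group above, so these comparisons share libraries and are not independent. In the libraries labelled Hdac2 ECKO, 8 of the 9 genes had lower fitted levels than in MCAO ipsilateral, with a median log2 fold change of −0.56 against 0.11 for all genes, of which 54.8% were above 0. No member was called; 2 genes of all tested were, or 0.0117%. H2-D1 was at −0.997 ± 0.52 (adjusted p = 0.55), Tap2 at −0.94 ± 0.73, Psmb9 at −0.82 ± 0.90 and Psmb8 at −0.71 ± 0.85, and H2-K1, Tap1, Tapbp and B2m lay between −0.56 and −0.22. Nlrc5 was at 0.50 ± 0.72. Only H2-D1 had separate ranges, a share close to the 10.3% of all genes that were lower with separate ranges. B2m changed sign, to 0.06, without MCAO ipsilateral replicate 3 and, to 0.03, without Hdac2 ECKO replicate 3. The receptor background was 198, 325 and 639 CPM in Hdac2 ECKO, and with its log as a covariate Psmb8 turned to 0.11 and Psmb9 and H2-D1 were at −0.12 and −0.58. Set against sham ipsilateral, B2m, H2-K1 and Psmb8 were higher in Hdac2 ECKO with separate ranges (6.96% of all genes were), none with an adjusted p below 0.44, and 0% of genes were called by edgeR (1221 at an unadjusted p under 0.05). DESeq2 called 246 genes and no member, voom 266 genes with B2m among them.

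The libraries labelled Ezh2 ECKO stood lower still. Of the 9 genes, 8 had lower fitted levels than in MCAO ipsilateral, and the median log2 fold change was −1.19 against 0.17 for all genes, of which 55.4% were above 0. No member was among the 250 genes called, 1.46% of those tested, in edgeR's quasi-likelihood test. H2-D1 was at −1.60 ± 0.53 (adjusted p = 0.12), Psmb9 at −2.02 ± 0.92 (0.24), Psmb8 at −1.81 ± 0.87 (0.26), Tap1 at −1.24 ± 0.56 (0.24), B2m at −1.19 ± 0.53 (0.22), Tap2 at −1.13 ± 0.74 (0.39), H2-K1 at −0.76 ± 0.40 (0.30) and Tapbp at −0.48 ± 0.38 (0.46, all adjusted p-values), while Nlrc5 was at 0.47 ± 0.72 (0.72). At an unadjusted p under 0.05 there were 4 members in the lower direction and 10.7% of all genes, and 5 members (H2-D1, Tap2, Tapbp, Psmb8 and Psmb9) were lower with separate ranges, as were 15.3% of all genes. Factors from DESeq2's method (RLE) in place of TMM moved the median of all genes to 0.36 and that of the members to −1.07.

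The receptor background moved with this comparison too: it was 268, 2083 and 600 CPM in Ezh2 ECKO against 242, 154 and 296 CPM in MCAO ipsilateral. With the log of this background as a covariate the members' median was −0.36 and H2-D1 had the smallest adjusted p, 0.32. Without Ezh2 ECKO replicate 2 the median was −0.84. Red cell and platelet markers, which include the globin genes, summed to 87.2 to 700.4 CPM in Ezh2 ECKO and 38305 to 65480 CPM in MCAO ipsilateral; with globin reads left out the members' median was −1.15. The 2 deletions were also compared with each other: all 9 genes and 44.4% of all tested had higher fitted levels in Hdac2 ECKO, with a median of 0.60 against −0.15 for all genes, and Psmb9 alone had separate ranges (6.87% of all genes were higher with separate ranges). None of the 9 was among the 21 genes called, 0.123%. Against sham ipsilateral, 4 of the 9 were higher and 5 lower in Ezh2 ECKO (56.1% of all genes were higher), with no separate ranges (13.7% of all genes had them), no member called and 0.041% of genes called.

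The rest of the pathway was read from lists of genes. Of 17 other genes of class I processing that were tested, 13 had higher fitted levels in MCAO ipsilateral than in sham ipsilateral, as had 45.9% of all genes. Their median log2 fold change was 0.63 and none was called. Psmb10 was at 1.10 ± 0.55, Psme1, a subunit of the proteasome activator PA28, at 1.00 ± 0.52 and its partner Psme2 at 0.72 (adjusted p from 0.71 to 0.75). All 7 constitutive proteasome beta subunits were also higher, with a median of 0.77. In Ezh2 ECKO against MCAO ipsilateral, 13 of the 17 were lower with a median of −0.64, and all 7 constitutive subunits were lower with a median of −0.90. Of all genes, 55.4% were above 0 there.

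A single gene of those 17 rose and a single gene fell past the threshold in any comparison with MCAO ipsilateral, both in Ezh2 ECKO. Lnpep, an aminopeptidase that trims peptides in endosomes for cross-presentation, was at 57.7, 47.1 and 56.1 CPM in MCAO ipsilateral and at 126, 139 and 130 CPM in Ezh2 ECKO, so that it rose by 1.30 ± 0.31 (log2; adjusted p = 0.042) with separate ranges. Rfxank, a DNA-binding subunit of the RFX complex on MHC promoters, was at 31.9, 47.1 and 35.4 CPM in MCAO ipsilateral and 12.6, 6.43 and 7.07 CPM in Ezh2 ECKO, a log2 fold change of −2.13 ± 0.51 (adjusted p = 0.043), also with separate ranges. In sham ipsilateral, Lnpep was at 72.4, 133 and 89.6 CPM and Rfxank at 20.6, 11.8 and 12.9 CPM. For both genes Ezh2 ECKO overlapped sham ipsilateral. MCAO ipsilateral lay below sham ipsilateral for Lnpep and above it for Rfxank, with separate ranges. Of all genes, 14.4% were lower and 13.3% higher with separate ranges there. Lnpep kept its call in 9 of 18 alternatives and Rfxank in 8 of 18. Lnpep lost it when any 1 of the 6 libraries was left out (adjusted p from 0.055 to 0.23), and Rfxank without any of them but Ezh2 ECKO replicate 1 (0.052 to 0.21; 0.048 without that library). In Hdac2 ECKO, Lnpep was at 0.88 and Rfxank at −1.22, both with separate ranges and neither called. Of all genes, 9.54% were higher and 10.3% lower with separate ranges in that comparison.

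The other heavy chains of the class I family were measured too, as 15 tested genes. In MCAO ipsilateral against sham ipsilateral 14 of the 15 were higher, with a median of 1.43 and 10 with separate ranges (45.9% of all genes were above 0, and 13.3% were higher with separate ranges), and in Ezh2 ECKO against MCAO ipsilateral 13 were lower with a median of −1.28. Over both sides H2-Q7, a Qa-2 antigen of the non-classical class, was the only one called: it rose by 3.78 ± 0.74 (adjusted p = 0.041). Its levels were 10.1, 3.31 and 4.63 CPM in sham ipsilateral, 8.51, 7.0 and 6.77 CPM in sham contralateral, 17.1, 51.6 and 205 CPM in MCAO ipsilateral and 2.92, 31.7 and 243 CPM in MCAO contralateral. MCAO replicate 3 of both sides thus stood far above all other libraries, and without those 2 libraries the difference was 1.90 (adjusted p = 0.23). The call was lost without any 1 of 11 of the 12 libraries (adjusted p from 0.053 to 0.18, log2 fold change from 2.57 to 4.10) and kept without MCAO contralateral replicate 1 (4.08, adjusted p = 0.0052). It was also lost with the replicate number as a block (3.22, adjusted p = 0.16). Of 26 alternatives, 11 kept the call, and the largest adjusted p among all of them was 0.72. H2-Q6, a close copy, had the same libraries on top, at 105 and 122 CPM. Of 75-base stretches, 17.0% in H2-Q7 and 17.9% in H2-Q6 also occurred in another gene, so that reads may be split between copies; for the sum of both the log2 fold change was 3.79 (adjusted p = 0.043). H2-T23, which encodes the Qa-1 antigen, followed the classical chains instead: it was at 109, 61.3 and 89.2 CPM in sham ipsilateral, 173, 292 and 256 CPM in MCAO ipsilateral, 162, 131 and 109 CPM in Hdac2 ECKO and 129, 62.5 and 105 CPM in Ezh2 ECKO. Its MCAO ipsilateral values lay above those of the other 3 ipsilateral groups, with no call.

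**Figure D4:**
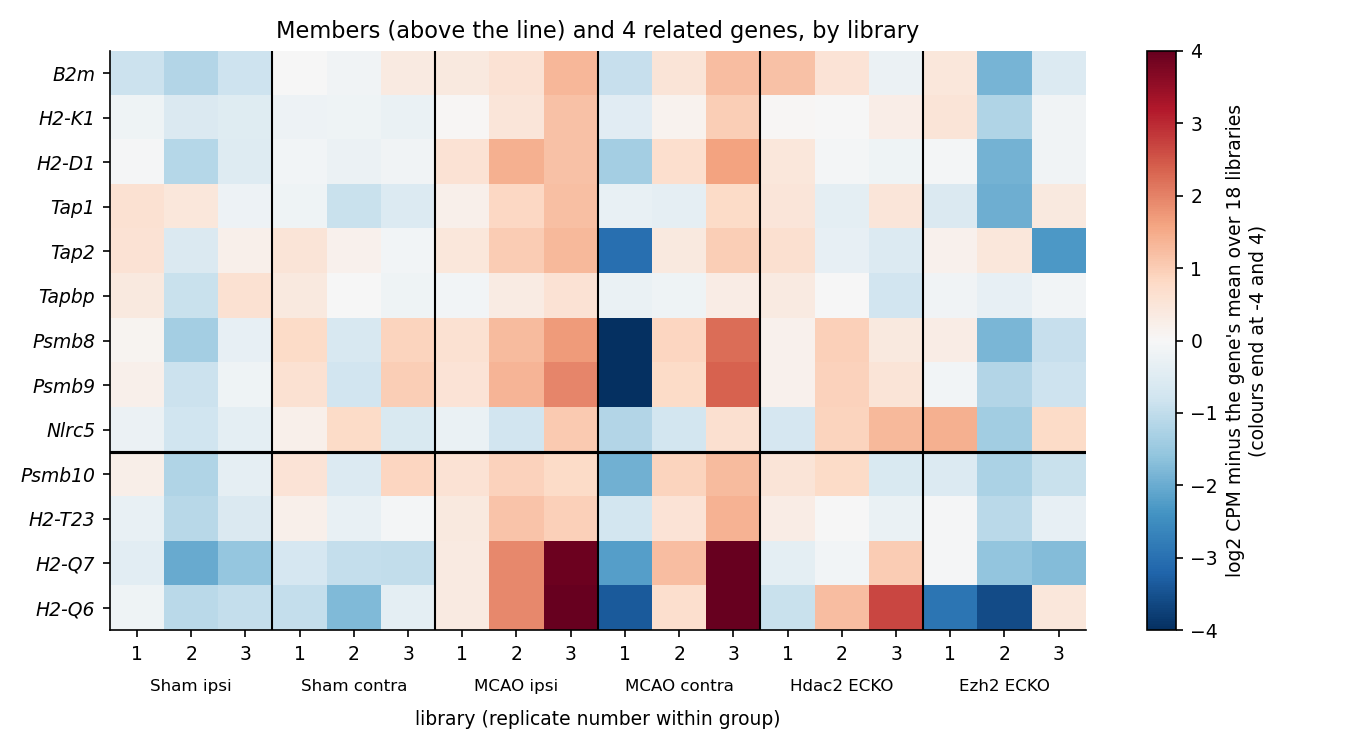
Level of the 9 genes and of Psmb10, H2-T23, H2-Q7 and H2-Q6 in each of 18 libraries, as log2 CPM minus the gene's mean over the libraries (colours end at −4 and 4); columns are libraries by group, rows are genes. MCAO contralateral replicate 1 is low for Psmb8, Psmb9 and Tap2, and replicate 3 of both MCAO groups is high for H2-Q7 and H2-Q6.

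Other cells of the cortex also carry class I genes, and in bulk RNA fewer cells of a type and less RNA per cell cannot be told apart. Microglia and macrophage markers, 13 genes summed, were at 37.6 to 45.8 CPM in sham ipsilateral and 88.4 to 102 CPM in MCAO ipsilateral, 67.4 to 86.7 CPM in Hdac2 ECKO and 52.0 to 68.0 CPM in Ezh2 ECKO. They moved with the class I genes, and their part in these differences was not tested. Among the defining markers, P2ry12 was at 0.048 to 0.482 CPM in sham ipsilateral and 2.44 to 7.55 CPM in MCAO ipsilateral, while Cx3cr1 stayed at or below 0.765 CPM in all 18 libraries. From 0 to 5 of the 13 were at 0 in a library. Markers of lymphocytes and neutrophils, 10 genes, summed to 5.69 to 26.2 CPM and overlapped between sham ipsilateral (9.74 to 26.2 CPM) and MCAO ipsilateral (11.6 to 14.7 CPM). Endothelial markers, 10 genes, had a mean sum of 23532 CPM in sham ipsilateral and 33731 CPM in sham contralateral. The mean sum was 33394 CPM in MCAO ipsilateral, 33029 CPM in Hdac2 ECKO and 25176 CPM in Ezh2 ECKO. Ranges overlapped for sham against MCAO ipsilateral (20985 to 27634 and 27176 to 38945 CPM). The order among ipsilateral groups leaned on Ly6c1 and does not stand for all 10. Ly6c1 was at 6245, 5083 and 5974 CPM in sham ipsilateral and 16050, 17722 and 9770 CPM in MCAO ipsilateral. It was at 8426, 9321 and 5311 CPM in Hdac2 ECKO and 4312, 2614 and 3724 CPM in Ezh2 ECKO. EdgeR called it lower in Ezh2 ECKO than in MCAO ipsilateral (−2.03 ± 0.42, adjusted p = 0.029). Mural cell markers, 8 genes, went the opposite way to the class I genes in stroke. They were at 103 to 158 CPM in sham ipsilateral and 36.8 to 102 CPM in MCAO ipsilateral, with at most 68.6 CPM in Hdac2 ECKO and 25.7 to 168 CPM in Ezh2 ECKO. The part of either in the class I differences was not tested.

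The 9 genes moved together from library to library, to unequal degrees. Over 18 libraries all 36 pairs had a positive correlation of log2 CPM, with r from 0.067 to 0.985 and a median of 0.501. Psmb8 and Psmb9 were closest (r = 0.985, rho = 0.990, permutation p = 1e-05 for each, the smallest that 100000 resamples can give, adjusted 7.5e-05 and 0.00015 over 45 relations; r = 0.978 without the 2 libraries farthest from the median). The heavy chains H2-K1 and H2-D1 had r = 0.879 (rho = 0.820, permutation p = 1e-05 and 7e-05, adjusted 7.5e-05 and 0.00035; r = 0.829 without 2), and B2m went with H2-D1 at r = 0.875 (rho = 0.866, permutation p = 1e-05 for each, adjusted 7.5e-05 and 0.00015; r = 0.793 without 2). The transporter subunits Tap1 and Tap2 did not show such a relation (r = 0.174, rho = 0.490, permutation p = 0.48 and 0.04, adjusted 0.50 and 0.075; r = 0.186 without 2). Groups, stroke and library background are all part of these relations, as the libraries are not replicates of 1 condition.

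The receptor background ran opposite to all 9 genes, with r from −0.866 to −0.267 and a median of −0.659, and 6 of the 9 relations had an adjusted permutation p under 0.05. H2-D1 gave r = −0.866 (rho = −0.876, permutation p = 1e-05 for each, adjusted 7.5e-05 and 0.00015), r = −0.762 without the 2 farthest libraries and r = −0.921 after group means were removed. For B2m the values were r = −0.810 and rho = −0.787 (permutation p = 2e-05 and 0.00019, adjusted 0.0001125 and 0.000855; r = −0.730 without 2), and for Psmb9 r = −0.774 and rho = −0.759 (9e-05 and 0.00036, adjusted 0.00045 and 0.00147; r = −0.646 without 2). Nlrc5 showed no such relation (r = −0.267, rho = −0.075, permutation p = 0.29 and 0.77, adjusted 0.32 and 0.79; r = 0.287 without 2). The part of this background in the group differences was not tested beyond the covariate fits given above.

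**Figure D5:**
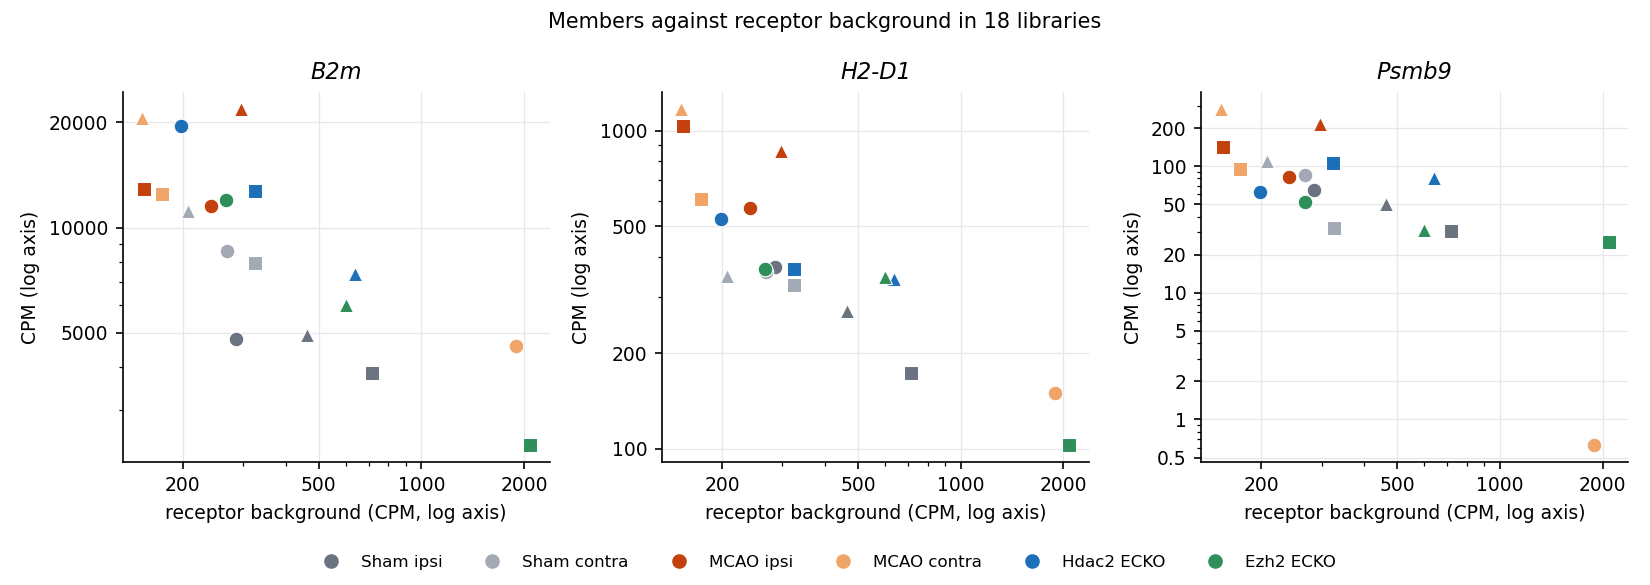
CPM of B2m, H2-D1 and Psmb9 (vertical log axes) against the summed CPM of 1466 olfactory and vomeronasal receptor genes (horizontal log axis) in 18 libraries, coloured by group. Levels decline to the right, and the 2 libraries at 1889 and 2083 CPM of background, MCAO contralateral replicate 1 and Ezh2 ECKO replicate 2, are at the right edge. The receptor sum is scaled to raw totals, without TMM factors.

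The search for similar genes covered 7805 others whose mean level was 10 CPM or more. Those whose log2 CPM went most closely with the mean standardised level of the 9 genes over 18 libraries were Rpn2 (r = 0.937), Rpl3 (0.935), Eif3f (0.913) and Slc25a11 (0.905, all Pearson's r). Rpn2 is a subunit of the oligosaccharyltransferase of the endoplasmic reticulum, Rpl3 a ribosomal protein, Eif3f a translation initiation factor subunit and Slc25a11 a mitochondrial carrier. These are descriptions of the same libraries, which share the depth and background given above.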

How the data were processed

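RNA of sorted cortical endothelial cells was sequenced in 18 libraries (SMART-Seq v4, paired-end). The authors deposited whole-number counts per gene; the submitters' processing notes name FastQC, cutadapt, STAR, featureCounts, DESeq2 and mm10, without roles. The deposited table is called normalized, but its values are whole numbers with unequal totals and were used as unscaled counts. Of the values from 1 to 20, 77.3% to 89.4% were even, depending on the library. A count may therefore stand for fewer separate reads, which was not tested. Halved counts were among the alternatives. Genes with at least 10 counts in at least 3 libraries were tested with edgeR 4.0.16 (R 4.3.3): TMM factors, 6 group means in a single quasi-likelihood fit with 12 residual degrees of freedom, Benjamini-Hochberg adjustment over 17094 genes, and 0.05 as threshold. SE is the log2 fold change divided by the square root of F. A level of 3 counts was taken as the floor. The fit was also run on counts simulated from its own dispersions. That simulation held no background or outlying libraries, so it does not show how the fit does on these data. DESeq2 1.42.0, limma 3.58.1 (voom), other filters, scalings, covariates and left-out libraries were alternatives, 3 of them added after the data were seen. The 9 genes and all lists were chosen with earlier results of these data known. Named genes are the 9, up to 3 called genes per list, the 5 most similar genes (1 of them is not reported here), and fixed partners and marker checks; P2ry12, Cx3cr1, Pecam1 and Ptprc were picked as defining markers. No source says that libraries of a group came from separate animals, so p-values measure the spread between these libraries. Strand and read assignment between overlapping genes (Psmb9 with Tap1, for example) are not given in the sources used here.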

Additional observations from a re-analysis of the deposited data

How the results depend on the processing

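No member was called in any of 11 comparisons, and under the alternatives 197 recomputed counts of called members stayed at 0 and 10 did not. For MCAO against sham over both sides, 1 member was called with background reads as a covariate (H2-D1), 1 with DESeq2 (H2-D1), 3 with voom (B2m, H2-K1 and H2-D1), 5 without the 2 libraries of highest background, and 0 to 2 when single libraries were left out. For MCAO against sham ipsilateral, voom called 3 members and a fit of the compared groups alone 1 (B2m, adjusted p = 0.049). For Ezh2 ECKO against MCAO ipsilateral, DESeq2 called 1 (H2-D1, adjusted p = 0.048) and the fit of the compared groups 1 (Psmb9, adjusted p = 0.035), and for Hdac2 ECKO against sham ipsilateral voom called 1 (B2m). The cause was not tested. Single-gene log2 fold changes given above were followed for MCAO against sham, ipsilateral and over both sides, and for each ECKO group against MCAO ipsilateral. Changes in the other comparisons were not counted. Among those counted, 12 recomputed values turned sign. For Tapbp in MCAO against sham ipsilateral (0.12) they were −0.027 with the background covariate, −0.14 with voom, −0.013 without MCAO replicate 3 of both sides and −0.22 to 0.40 when single libraries were left out (−0.22 without sham ipsilateral replicate 2, −0.013 without MCAO ipsilateral replicate 3). For Nlrc5 there it was −0.016 without MCAO ipsilateral replicate 3 and −0.016 without that replicate of both sides (single libraries, −0.016 to 0.98), and in Ezh2 ECKO −0.14 without replicate 1 (single libraries, −0.14 to 1.14). In Hdac2 ECKO B2m was at 0.055 without MCAO ipsilateral replicate 3, 0.054 without it on both sides and 0.03 without Hdac2 ECKO replicate 3 (single libraries, −0.64 to 0.055), and Psmb8 at 0.11 with the background covariate. Whether equal replicate numbers mark the same mouse is not given. After group means were removed, equally numbered libraries of the MCAO sides correlated at 0.12, 0.30 and −0.02. The highest correlation with another number was −0.03, 0.16 and 0.17. Between the sham sides the values were 0.21, 0.25 and −0.07, against 0.22, −0.14 and 0.06. With 3 mixed values a comparison, this cannot decide whether equal numbers are pairs. The main fit did not take them as pairs. With a replicate block 0 members were called in each comparison, while the genes called in Ezh2 ECKO against MCAO ipsilateral went from 250 to 12 (13 with the background covariate, 1642 with DESeq2, 1000 without the 2 libraries of highest background, 485 with the compared groups alone). With the block H2-Q7 (adjusted p = 0.16), Lnpep and Rfxank (0.071 each) lost their calls. For Hdac2 ECKO the 2 called genes became 244 with DESeq2, and over both sides the 26 became 337 with DESeq2 and 2199 with voom. The values of Tap2, Psmb8 and Psmb9 in MCAO contralateral replicate 1 came from 46, 96 and 20 counts, so their counting error is larger than in other libraries.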

Other observations

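Of 30 interferon-induced genes tested, 24 had higher fitted levels in MCAO ipsilateral than in sham ipsilateral, 18 of them with separate ranges (13.3% of all genes), with a median log2 fold change of 0.75 and none called by edgeR. In Ezh2 ECKO against MCAO ipsilateral 21 of the 30 were lower, 9 with separate ranges (15.3% of all genes), with a median of −0.57, and in Hdac2 ECKO 18 were lower with a median of −0.13. Of 14 genes of interferon signalling 7 were higher and 7 lower in MCAO ipsilateral. Irf1, an interferon-induced transcription factor of class I genes, was at 48.4, 34.6 and 28.9 CPM in sham ipsilateral, 57.2, 75.9 and 47.1 CPM in MCAO ipsilateral, 65.4, 78.6 and 103 CPM in Hdac2 ECKO and 26.7, 28.2 and 21.2 CPM in Ezh2 ECKO. Its Ezh2 ECKO values lay below the other 3 groups and its Hdac2 ECKO values above sham ipsilateral, with no call against MCAO ipsilateral in either (−1.24, adjusted p = 0.13, and 0.46, adjusted p = 0.75).

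Class II genes, 9 summed, reached 83.1 CPM in MCAO ipsilateral replicate 3 and 150 CPM in MCAO contralateral replicate 3, the replicates that also led for H2-Q7, against at most 46.0 CPM in any sham or ECKO library. Their invariant chain Cd74 was at 28.1 and 64.4 CPM in these libraries and at 0 to 22.7 CPM in the other 16.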
